A study of Homo sapiens with 2 samples.

Results

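The let-7 and miR-98 family comprised every entry of a mature miRNA count table whose name was exactly hsa-let-7a, hsa-let-7b, hsa-let-7c, hsa-let-7d, hsa-let-7e, hsa-let-7f, hsa-let-7g, hsa-let-7i or hsa-miR-98, with an optional copy number and arm. This rule used names only and found 20 of the table's 2904 entries. Small RNA had been profiled in BEAS-2B, a wild-type line of immortalised epithelial cells from human bronchus, grown in serum-containing medium. The manganese group was exposed to manganese for 24 h, at a dose not given in the sources used here, and the control group received vehicle for the same 24 h. Each group held 1 library, so no difference has a replicate check. The comparisons below are between 2 libraries and not between conditions, and all intervals are 95% intervals that cover counting error only.

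let-7 miRNAs are made from hairpin precursors that Drosha and then Dicer cut. The arm on the 5′ side (5p) is the guide that Argonaute proteins keep, and the 3′ arm (3p) is the passenger that is mostly degraded. Bases 2 to 8 of the guide, the seed, select target mRNAs, which for let-7 include RAS, HMGA2, MYC and LIN28 transcripts. The protein LIN28 in turn blocks let-7 processing, and let-7 is known as a growth-restraining, differentiation-linked family that is abundant in adult epithelia.

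Mature sequences from RefSeq (GRCh38.p14) matched 19 of the 20 entries, and let-7f-2-3p was the entry without a match. The 9 guides are shown because they set which targets the family shares and how easily its counts can be told apart, with the seed in capitals.
let-7a-5p: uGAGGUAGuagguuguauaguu
let-7b-5p: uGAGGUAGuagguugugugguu
let-7c-5p: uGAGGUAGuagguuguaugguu
let-7d-5p: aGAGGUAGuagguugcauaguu
let-7e-5p: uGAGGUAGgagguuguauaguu
let-7f-5p: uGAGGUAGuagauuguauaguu
let-7g-5p: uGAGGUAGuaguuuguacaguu
let-7i-5p: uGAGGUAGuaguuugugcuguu
miR-98-5p: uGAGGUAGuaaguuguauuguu

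All 9 guides had the same seed and the same length of 22 bases. Whether different sequences were captured and counted with equal efficiency was not tested, so comparisons between different arms are of counts only. The guides differed outside the seed, at positions counted from 1 at the 5′ end. Relative to let-7a-5p, single substitutions gave let-7c-5p (A19G), let-7e-5p (U9G) and let-7f-5p (G12A), and let-7c-5p differed from let-7b-5p only by G17A. These were the 4 of 36 guide pairs that were 1 base apart. The treatment of mismatched reads by the authors' counting is not stated in any source used here, so part of the counts of such pairs could belong to the other member. let-7i-5p differed from let-7a-5p at 4 positions and miR-98-5p at 2 (G11A and A19U).

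The 12 hairpins lie on 8 chromosomes of GRCh38, at the same positions in RefSeq and in GENCODE release 29. MIRLET7A1 (94175957 to 94176036), MIRLET7F1 (94176347 to 94176433) and MIRLET7D (94178834 to 94178920) follow each other on the plus strand of chromosome 9, in introns of a long non-coding transcript. MIRLET7A3 (46112749 to 46112822) and MIRLET7B (46113686 to 46113768) are in exons of MIRLET7BHG on chromosome 22. MIR98 (53556223 to 53556341) and MIRLET7F2 (53557192 to 53557274) are in introns of the ubiquitin ligase gene HUWE1 on chromosome X. MIRLET7A2 (122146522 to 122146593) is in an intron of MIR100HG on chromosome 11, MIRLET7C (16539828 to 16539911) in an intron of MIR99AHG on chromosome 21 and MIRLET7E (51692786 to 51692864) in an intron of SPACA6 on chromosome 19. MIRLET7G (52268278 to 52268361) is in an intron of WDR82 on chromosome 3, and MIRLET7I (62603686 to 62603769) in an intron of a non-coding transcript on chromosome 12. Reads of let-7a-5p can come from 3 of these hairpins and reads of let-7f-5p from 2, while several of their passenger arms name the copy.

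The manganese library held 1091070 counts and the control library 1064179. Of the 2904 entries, 403 had at least 20 counts over both libraries and are called measured, 19 of them from the family. Counts were scaled with TMM factors of 0.981 in the manganese and 1.02 in the control library, and CPM below means counts per 1000000 scaled counts of a library. In the 11-entry blood cell marker list, each of the 7 measured ones was 2-fold or more higher in the manganese library, where the list took 16.2% of all counts, against 0.909% in the control library. Most of that was miR-486-5p, with 174822 counts in the manganese and 9597 in the control library. The 19q13 placental list summed to 844 counts in the manganese library and 71 in the control library. The 7 bronchial epithelial markers were low in both libraries, with 224 counts in the manganese and 112 in the control library. Among them miR-203a-3p had 0 counts in either library and miR-141-3p had 2 in the manganese and 0 in the control library. miR-200c-3p had 7 in the manganese and 3 in the control library, and miR-205-5p had 11 in the manganese and 3 in the control library. The 3 measured ones were miR-200a-3p (70 counts in the manganese and 45 in the control library), miR-200b-3p (74 and 32) and miR-429 (60 and 29). Of these 3, 2 were at least 2-fold higher in the manganese library, miR-200b-3p (fold 2.35) and miR-429 (2.10). By the same rule 12.9% of all measured entries were higher.

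The let-7 and miR-98 family was a large part of both libraries. Its 20 entries together took 33.2% of all counts in the manganese library (362218 counts, Clopper-Pearson interval 33.1 to 33.3%) and 38.1% in the control library (405197 counts, 37.98 to 38.2%). Nearly all of it was guide. The 9 guide arms summed to 360421 counts in the manganese and 403158 in the control library, a scaled fold of 0.907 (0.903 to 0.911), manganese over control, that became 1.03 without the 5 most abundant entries in the totals. A share of all counts also depends on what else was counted. With the blood cell and 19q13 lists left out of both totals, the family's share was 39.6% in the manganese and 38.4% in the control library, the opposite order. These lists were chosen with earlier results known, and each measured entry in them was 2-fold or more higher in the manganese library. Leaving them out thus had to raise the manganese share more than the control share. The side on which the whole family falls depended on the scaling. Shares within the family, which need no library scaling, are given further on. In these bulk libraries, fewer cells of a type and less RNA per cell cannot be told apart. With TMM computed without these 2 lists, the summed guide fold was 0.930 and the summed passenger fold 0.917, and all 9 guides still had lower levels in the manganese library.

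Each guide had a lower TMM-scaled level in the manganese library, by amounts that ranged from 1.04-fold to 1.44-fold, and none reached 2-fold, but let-7a-5p, let-7d-5p and let-7i-5p lay above 1-fold with library totals that omit the 5 most abundant entries. let-7a-5p, the most abundant member and the second most abundant entry of either library, had 199234 counts (186233 CPM) in the manganese and 210027 (193515 CPM) in the control library, a fold of 0.962 (0.956 to 0.968). let-7f-5p, which differs from it at 1 base, had 73471 counts in the manganese and 84857 in the control library, a fold of 0.878 (0.870 to 0.887). For both, the gap was small against the level itself.

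let-7c-5p showed the widest gap of the guides, with 7054 counts (6594 CPM) in the manganese and 10300 (9490 CPM) in the control library, a fold of 0.695 (0.674 to 0.716). miR-98-5p, which carries the let-7 seed under another name, had 3033 counts (2835 CPM) in the manganese and 4297 (3959 CPM) in the control library, a fold of 0.716 (0.683 to 0.750). let-7b-5p had 36259 counts (33893 CPM) in the manganese and 45882 (42275 CPM) in the control library, a fold of 0.802 (0.791 to 0.813). These 3 guides stood below the remaining ones. let-7b-5p and let-7c-5p were the guides that carried A19G relative to let-7a-5p, and they come from different chromosomes, 22 and 21. miR-98-5p and let-7i-5p both carried A19U, with folds of 0.716 and 0.913. A link between this base and the fold was not tested.

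The remaining 4 guides lay between. let-7e-5p had 7886 counts in the manganese and 9361 in the control library (fold 0.855, 0.829 to 0.881). let-7g-5p had 19596 counts in the manganese and 23109 in the control library (0.860, 0.844 to 0.877). Both had folds close to that of let-7f-5p. let-7i-5p had 5513 counts in the manganese and 6125 in the control library (0.913, 0.880 to 0.947). let-7d-5p had 8375 counts in the manganese and 9200 in the control library (0.924, 0.896 to 0.951), nearest to let-7a-5p. 

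**Figure D1:**
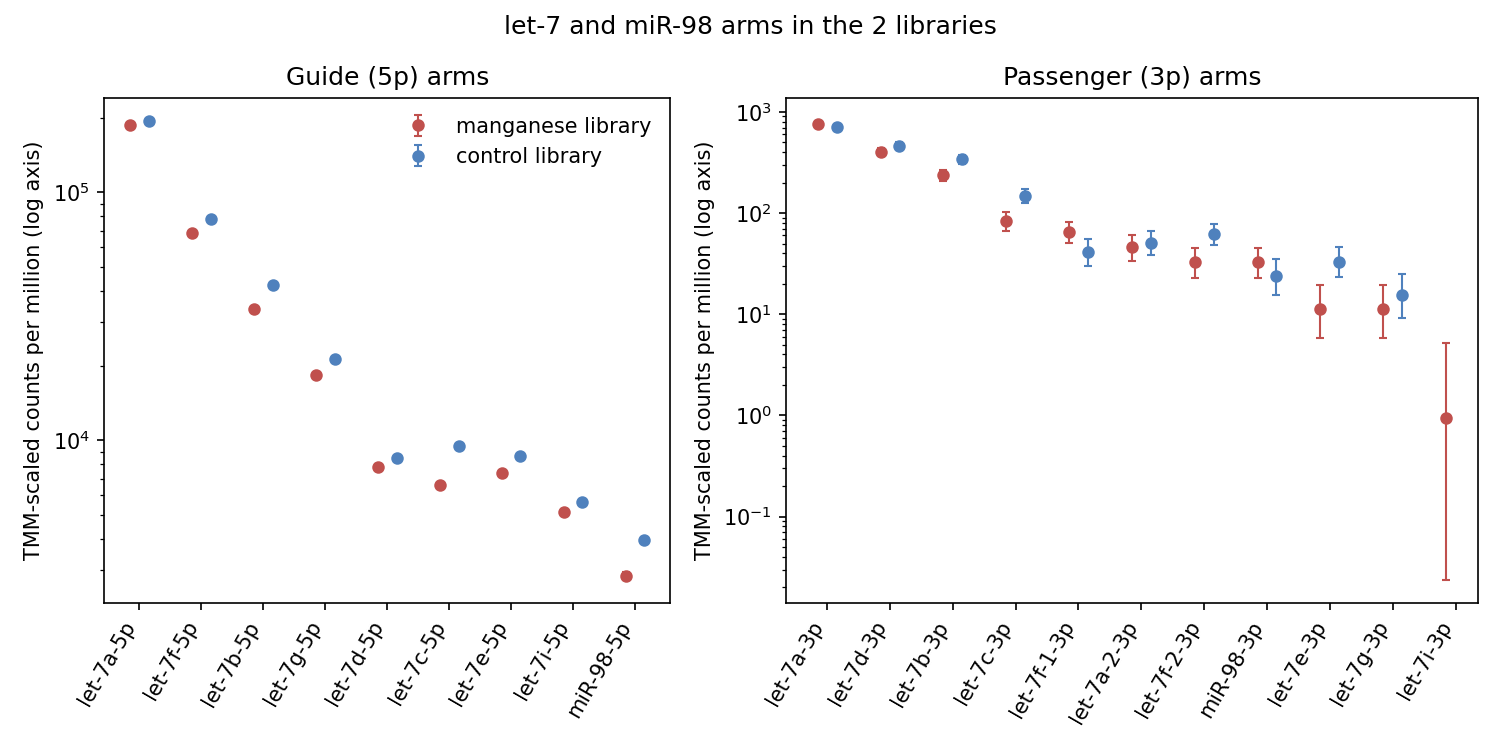
TMM-scaled CPM (log axis) of the 9 guide arms (left) and 11 passenger arms (right), with the manganese library left of the control library at each arm and bars for the 95% counting interval. let-7a-5p lies at 186233 CPM in the manganese and 193515 CPM in the control library, while no passenger arm exceeds 759 CPM; let-7i-3p has no control point because its control count was 0.

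The order of the guides by counts was a, f, b, g, d, e, c, i, 98 in the manganese library and a, f, b, g, c, e, d, i, 98 in the control library. let-7c-5p was thus the seventh in the manganese library and the fifth in the control library, and let-7d-5p changed places with it. Neighbours in the manganese order all differed beyond counting error, the closest being let-7d-5p over let-7e-5p with a ratio of 1.06 (1.03 to 1.095). In the control library let-7e-5p and let-7d-5p could not be told apart, with a ratio of 1.02 (0.989 to 1.05).

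All 9 guides were lower by an interval that excluded 1-fold, as were 28.5% of all 403 measured entries (21.3% were higher) and 59.7% of the 62 entries with a mean of at least 1000 counts, a group that includes the guides. Of the 53 entries outside the family at that level, 28 were lower in this way and 17 higher. The median log2 fold of the guides was −0.22, against −0.08 for all measured entries and −0.09 for the 53 entries outside the family with a mean of at least 1000 counts. When the 5 most abundant entries, 3 of them let-7 guides and another miR-486-5p, were left out of the library totals, 4 guides stayed lower, let-7a-5p, let-7d-5p and let-7i-5p were higher and 2 had intervals that included 1-fold. That scaling moved the median of all measured entries by 0.19 on the log2 scale. The 3 other entries with such counts whose log2 fold lay nearest to the −0.14 of the summed guides were miR-16-5p (−0.15), miR-28-5p (−0.12) and miR-574-5p (−0.11), out of 53 compared. With only 2 libraries this likeness rests on a single difference.

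By the rule of at least 2-fold with an interval that excludes 1-fold, 0 of the 19 measured members were higher, where 12.9% of all measured entries were, and 1 was lower, where 6.45% were. At 1.5-fold, 1 member was higher against 15.9% of all entries, and 3 were lower against 14.1%. The median log2 fold of the 19 measured members was −0.22, and all 4 members past 1.5-fold were passenger arms.

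The passenger arms that the comparison turns on are shown with bases 2 to 8 in capitals. Unlike the guides they have 6 different seeds among the 10 matched passenger arms, 4 of which (let-7a-3p, let-7b-3p, let-7f-1-3p and miR-98-3p) share one.
let-7a-3p: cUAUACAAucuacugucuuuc
let-7b-3p: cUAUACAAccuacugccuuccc
let-7c-3p: cUGUACAAccuucuagcuuucc
let-7d-3p: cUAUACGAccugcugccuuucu
let-7e-3p: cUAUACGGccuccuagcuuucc
let-7f-1-3p: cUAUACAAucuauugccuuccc
miR-98-3p: cUAUACAAcuuacuacuuuccc

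let-7e-3p was the member past 2-fold, with 12 counts (11.2 CPM) in the manganese and 36 (33.2 CPM) in the control library, a fold of 0.338 (0.160 to 0.665). Its control count alone met the minimum of 20 counts, and its manganese count alone did not. let-7f-2-3p had 35 counts in the manganese and 67 in the control library, a fold of 0.530 (0.342 to 0.809). let-7c-3p, the passenger of the guide with the widest gap, had 89 counts in the manganese and 159 in the control library, a fold of 0.568 (0.433 to 0.741). These 3 arms were lower in the manganese library at 1.5-fold, and only let-7e-3p also at 2-fold.

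On the other side, let-7f-1-3p had 69 counts (64.5 CPM) in the manganese and 45 (41.5 CPM) in the control library, a fold of 1.56 (1.05 to 2.32). Its seed is that of let-7a-3p, let-7b-3p and miR-98-3p, whose folds lay on both sides of 1-fold. The most abundant passenger, let-7a-3p, had 812 counts in the manganese and 763 in the control library, a fold of 1.08 (0.977 to 1.19). Its interval excluded 1-fold with TMM computed without the blood cell and 19q13 lists (1.11, 1.0015 to 1.22) and without the 5 most abundant entries (1.23, 1.11 to 1.36). let-7b-3p had 254 counts in the manganese and 370 in the control library, a fold of 0.696 (0.591 to 0.819).

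let-7d-3p was the second most abundant passenger, with 429 counts in the manganese and 501 in the control library (fold 0.869, 0.762 to 0.990), but its interval included 1-fold under the same 2 scalings (0.781 to 1.02 and 0.867 to 1.13). miR-98-3p had 35 counts in the manganese and 26 in the control library (1.37, 0.799 to 2.36). let-7a-2-3p had 49 counts in the manganese and 55 in the control library (0.904, 0.602 to 1.35, with a side that depended on the scaling). let-7g-3p had 12 counts in the manganese and 17 in the control library (0.716, 0.312 to 1.59). The intervals of miR-98-3p, let-7a-2-3p and let-7g-3p included 1-fold, so no difference was detectable at this depth. let-7i-3p had 1 count in the manganese library and 0 in the control library. The interval of its control share reached up to 0.000347% of all counts, and no fold is given.

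**Figure D2:**
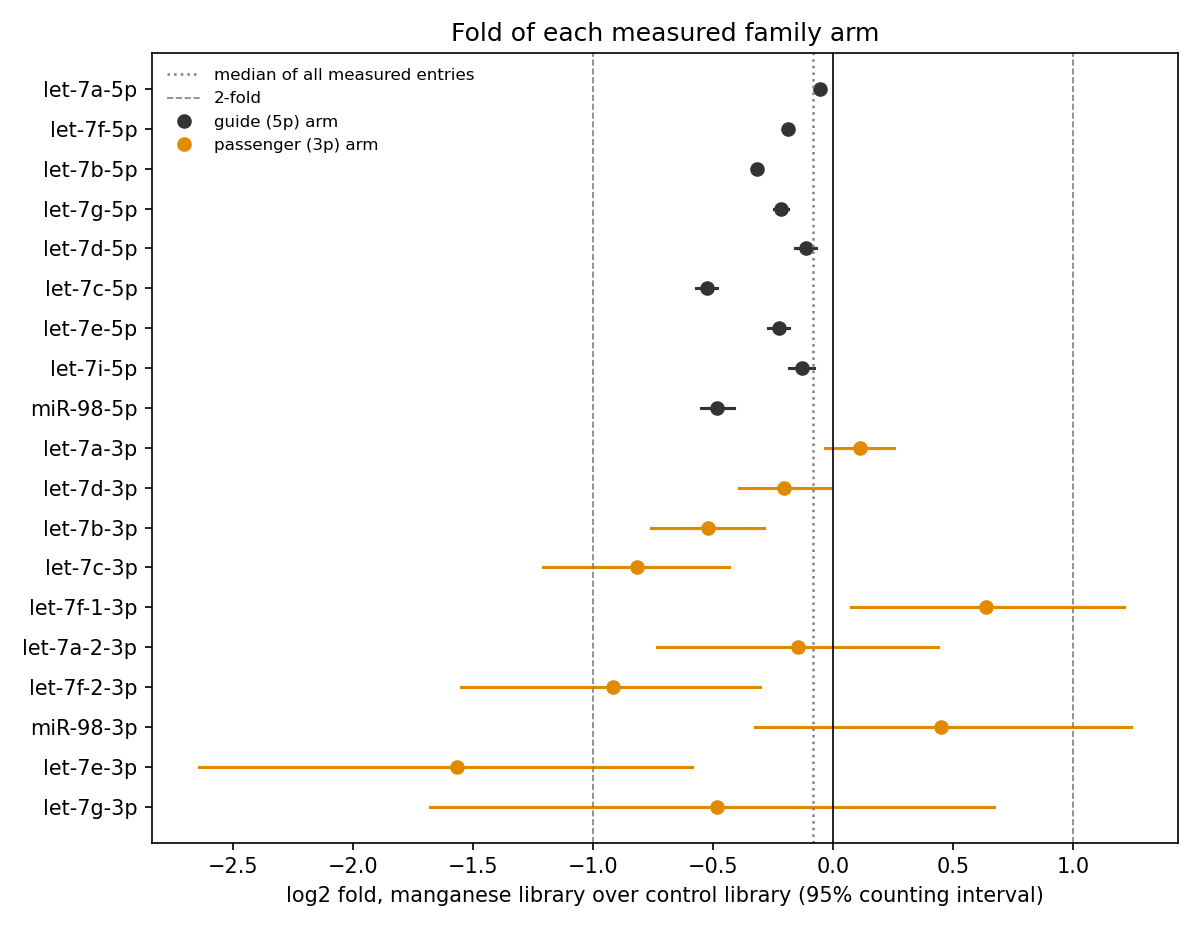
log2 fold of each of the 19 measured arms, manganese library over control library, with the 95% counting interval; dashed lines mark 2-fold and the dotted line the median of all measured entries (−0.08). The 9 guides lie between −0.53 and −0.06, of which let-7a-5p, let-7d-5p and let-7i-5p move above 0 without the 5 most abundant entries in the totals, whereas the passengers spread from −1.56 (let-7e-3p) to 0.64 (let-7f-1-3p).

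Passenger arms made up a small part of the family in both libraries. Together they had 1797 counts in the manganese library, 0.496% of the family's counts (0.473 to 0.520%), and 2039 in the control library, 0.503% (0.482 to 0.525%). The odds ratio of passenger to guide, manganese over control, was 0.986 (0.925 to 1.05), an interval that does not depend on the library scaling and leaves room for a shift of about 1.08-fold down or 1.05-fold up. The paralogues covered a wide range of passenger shares. let-7d had the highest passenger share, 4.87% (4.43 to 5.34%) in the manganese and 5.16% (4.73 to 5.62%) in the control library. let-7g had 0.0612% (0.0316 to 0.107%) in the manganese and 0.0735% (0.0428 to 0.118%) in the control library, which is 1633 guides for each passenger in the manganese and 1359 in the control library.

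Of the 8 paralogues with both arms measured, 2 had a passenger-to-guide ratio that differed by at least 1.5-fold with an interval that excluded 1, in opposite directions. For miR-98 the passenger share was 1.14% (0.796 to 1.58%) in the manganese and 0.601% (0.393 to 0.880%) in the control library, an odds ratio of 1.91 (1.11 to 3.31). Its guide was lower in the manganese library, and the interval of its passenger included 1-fold. For let-7e the passenger share was 0.152% (0.0785 to 0.265%) in the manganese and 0.383% (0.268 to 0.530%) in the control library, an odds ratio of 0.396 (0.187 to 0.779). let-7a, with the most passenger counts, had a share of 0.430% (0.402 to 0.460%) in the manganese and 0.388% (0.362 to 0.415%) in the control library, an odds ratio of 1.11 (1.01 to 1.22). The intervals of the other 5 included 1, with odds ratios from 0.817 for let-7c to 1.07 for let-7f.

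Such arm shifts were common in the table. Among all 96 hairpin stems with both arms measured, the ratio of the minor to the major arm was higher by this rule in 15.6% and lower in 12.5%, so 1 family stem of 8 in each direction is near the background. let-7e also passed at 2-fold, where 7.29% of stems were lower, and 12.5% were higher with 0 family stems among them. Counting any size with an interval that excluded 1, 18.8% of stems were higher, let-7a and miR-98 among them, and 22.9% were lower, among them let-7e. The median odds ratio was 0.905 over the 8 family stems and 0.938 over all 96. Both family calls rest on passenger arms of 61 counts or fewer over the 2 libraries. With at least 100 counts required of each arm, 0 family stems passed.

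**Figure D3:**
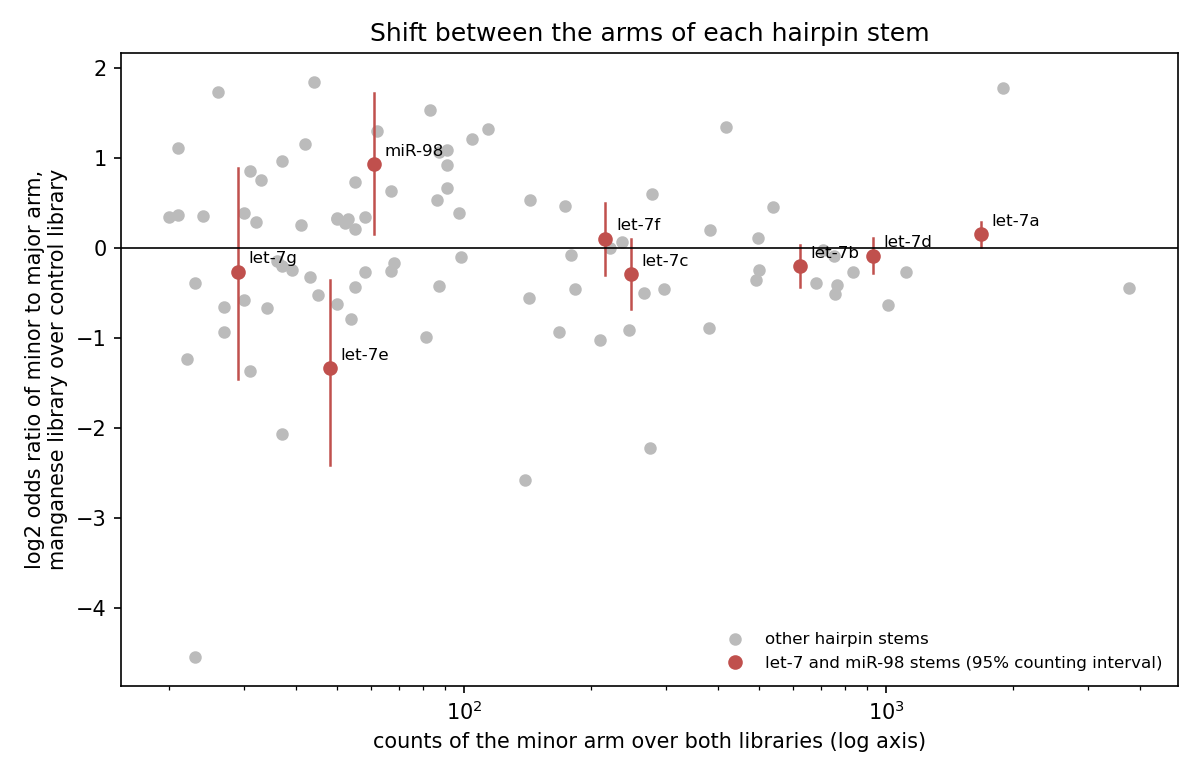
log2 odds ratio of minor to major arm, manganese library over control library, against the counts of the minor arm over both libraries (log axis), for family stems (red, bars for the 95% counting interval) and other stems (grey); 2 other stems with a ratio of 0 or infinity are not drawn. The 5 family stems with over 100 passenger counts lie between odds ratios of 0.817 and 1.11, and miR-98 (1.91) and let-7e (0.396) lie on opposite sides among stems of low count.

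By name, passenger arms also separate the hairpin copies of let-7f, which the shared guide cannot. let-7f-2-3p had no matched sequence, so how well its reads can be told from those of other passenger arms was not tested. Shifts between hairpin copies were not counted over the rest of the table. Of the let-7f passenger counts, let-7f-1-3p of the chromosome 9 hairpin took 69 of 104 in the manganese library (66.3%, 56.4 to 75.3%), against 45 of 112 in the control library (40.2%, 31.0 to 49.9%). The odds ratio was 2.94 (1.63 to 5.32), and the intervals of the 2 shares did not overlap. The summed let-7f passenger share hid this, with 0.141% (0.116 to 0.171%) in the manganese and 0.132% (0.109 to 0.159%) in the control library. The hairpin of miR-98 lies beside that of let-7f-2 in HUWE1. There miR-98-3p had a fold of 1.37 (0.799 to 2.36) and let-7f-2-3p one of 0.530 (0.342 to 0.809). These 2 intervals overlap only between 0.799 and 0.809, and such an overlap does not show that the folds are alike. The ratio of miR-98-3p to let-7f-2-3p was not compared directly between the libraries. On chromosome 9, let-7d-3p had a fold of 0.869 (0.762 to 0.990) and let-7f-1-3p one of 1.56 (1.05 to 2.32), 2 intervals that do not overlap. For let-7a, the arm of the chromosome 11 copy, let-7a-2-3p, took 5.69% (4.24 to 7.45%) of the passenger counts in the manganese and 6.72% (5.11 to 8.66%) in the control library, and the odds ratio of 0.837 (0.550 to 1.27) had an interval that included 1.

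The make-up of the guide pool, which needs no library scaling, leaned further towards let-7a in the manganese library. let-7a-5p was 55.3% (55.1 to 55.4%) of the family's guide counts in the manganese and 52.1% (51.9 to 52.2%) in the control library, a difference of 3.18 percentage points and an odds ratio against the other guides of 1.14 (1.13 to 1.15). let-7b-5p gave up the most points, with 10.1% (9.96 to 10.2%) in the manganese and 11.4% (11.3 to 11.5%) in the control library, an odds ratio of 0.871 (0.858 to 0.884). let-7c-5p had 1.96% (1.91 to 2.003%) in the manganese and 2.55% (2.51 to 2.60%) in the control library, the lowest odds ratio, 0.761 (0.738 to 0.785). miR-98-5p followed with 0.842% (0.812 to 0.872%) in the manganese and 1.07% (1.03 to 1.098%) in the control library (0.788, 0.752 to 0.826).

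Smaller losses of share were seen for let-7f-5p, at 20.4% in the manganese and 21.0% in the control library (odds ratio 0.960, 0.9498 to 0.971), for let-7g-5p, at 5.44% in the manganese and 5.73% in the control library (0.946, 0.927 to 0.964), and for let-7e-5p, at 2.19% in the manganese and 2.32% in the control library (0.941, 0.913 to 0.970). The shares of let-7d-5p (2.32% in the manganese, 2.28% in the control library) and let-7i-5p (1.53% in the manganese, 1.52% in the control library) had odds ratios of 1.02 (0.989 to 1.05) and 1.01 (0.970 to 1.04), whose intervals included 1. let-7a-5p was the one guide whose share was higher beyond counting error. Compared pair by pair, 31 of 36 guide ratios differed between the libraries beyond counting error. At these counts the intervals were narrow enough to pass small shifts, such as 1.04 (1.01 to 1.07) for let-7a over let-7d. Of the 53 entries outside the family with a mean of at least 1000 counts, 28 were lower and 17 higher beyond counting error. Ratios between those entries were not compared, so the 31 pairs have no background share. let-7a-5p gained on each of the 8 others, most on let-7c-5p, with 28.2 let-7a counts for each let-7c count in the manganese and 20.4 in the control library (ratio of ratios 1.39, 1.34 to 1.43). The 5 guide pairs whose ratio did not differ beyond counting error were let-7c with miR-98, let-7d with let-7i, and let-7e, let-7f and let-7g among themselves. A single base separates let-7a-5p from let-7c-5p, as it does from let-7e-5p and let-7f-5p, and how reads were divided between these guides was not tested.

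Among the passenger counts let-7a was again higher in share, at 47.9% (45.6 to 50.3%) in the manganese and 40.1% (37.98 to 42.3%) in the control library (odds ratio 1.37, 1.21 to 1.56). let-7b had 14.1% (12.6 to 15.8%) in the manganese and 18.1% (16.5 to 19.9%) in the control library (0.743, 0.621 to 0.887), and let-7c 4.95% (3.996 to 6.06%) in the manganese and 7.80% (6.67 to 9.05%) in the control library (0.616, 0.466 to 0.811). Guide and passenger of these 3 paralogues thus lay on the same side. let-7e was also lower in both, with passengers at 0.668% in the manganese and 1.77% in the control library (odds ratio 0.374, 0.177 to 0.739). miR-98 (guide odds ratio 0.788, passenger 1.54), let-7f (0.960, 1.06) and let-7d (1.02, 0.963) lay on opposite sides. let-7g (0.946, 0.800) lay on the same side. The passenger intervals of miR-98, let-7f, let-7d and let-7g included 1. let-7d, only 2.32% of the guides in the manganese library, was 23.9% (21.9 to 25.9%) of the passengers there and 24.6% (22.7 to 26.5%) in the control library.

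**Figure D4:**
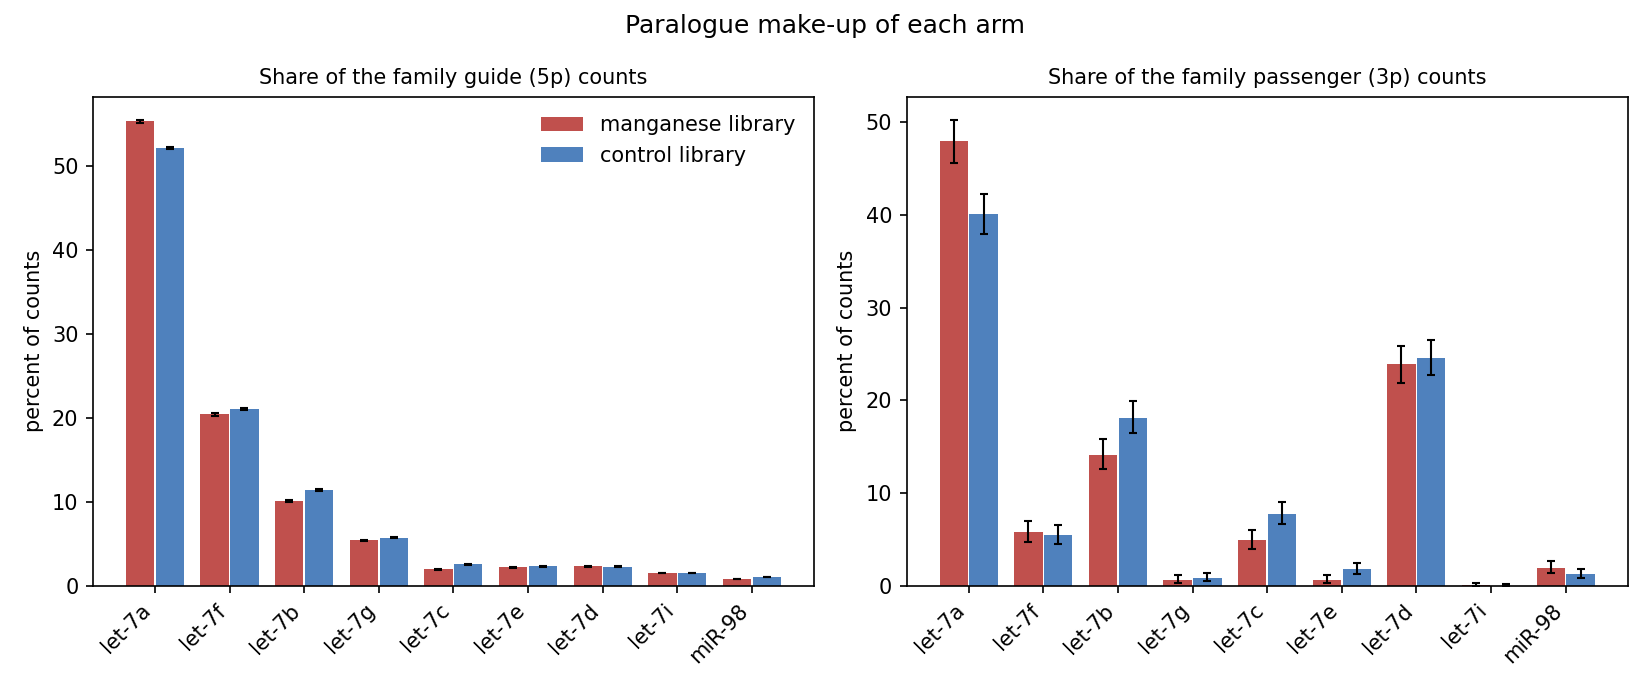
Percent of the family's guide counts (left) and passenger counts (right) from each paralogue, with the manganese library left of the control library and bars for the Clopper-Pearson 95% interval. let-7a stands at 55.3% of guides in the manganese and 52.1% in the control library, and let-7b and let-7c are lower in the manganese library in both panels.

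The hairpins of let-7a-2, let-7c and let-7e share primary transcripts or a host gene with members of the miR-99/100 and miR-125 families. miR-99 and miR-100 are known regulators of mTOR signalling, and miR-125 is the vertebrate form of the worm miRNA lin-4, which like let-7 controls developmental timing in the worm. All 11 partner arms were measured. By the 2-fold rule 0 of them were higher, where 12.9% of all measured entries were, and 1 was lower, where 6.45% were. That arm was miR-99a-3p, with 1 count in the manganese and 22 in the control library (fold 0.0461, 0.00112 to 0.285). Its control count alone met the minimum of 20 counts, so it counted as measured only because it was high there. The median log2 fold of the 11 partner arms was −0.078, beside −0.084 for all measured entries.

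The folds of the guide partners are given beside those of the neighbouring let-7 arms. Beside MIRLET7A2 on chromosome 11, miR-100-5p had 2890 counts in the manganese and 2231 in the control library (fold 1.31, 1.24 to 1.39), where let-7a-2-3p had 0.904 (0.602 to 1.35) with a side that depended on the scaling. Beside MIRLET7E on chromosome 19, miR-99b-5p had 940 counts in the manganese and 695 in the control library (1.37, 1.24 to 1.52), while miR-125a-5p had 2300 in the manganese and 2713 in the control library (0.860, 0.813 to 0.910), close to the 0.855 of let-7e-5p. Beside MIRLET7C on chromosome 21, miR-99a-5p had 485 counts in the manganese and 456 in the control library (1.08, 0.948 to 1.23), against 0.695 for let-7c-5p. miR-125b-5p, made from a copy in each of the chromosome 11 and chromosome 21 transcripts, had 1981 counts in the manganese and 2121 in the control library (0.948, 0.891 to 1.01, with a side that depended on the scaling). The other passenger arms ranged from 23 counts in the manganese and 32 in the control library for miR-125b-2-3p to 397 in the manganese and 311 in the control library for miR-100-3p (1.30, 1.11 to 1.51). miR-125b-1-3p had 197 counts in the manganese and 248 in the control library (0.806, 0.665 to 0.976), and miR-125a-3p had 38 in the manganese and 29 in the control library (1.33, 0.798 to 2.23). miR-99b-3p was lower with 84 counts in the manganese and 126 in the control library (0.676, 0.507 to 0.898), opposite to its own guide.

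Outside the family, 2 entries whose name matched a mature sequence carry the let-7 seed. miR-4458, whose remaining sequence is unlike let-7, had 28 counts in the manganese and 16 in the control library, a fold of 1.78 with an interval of 0.928 to 3.51 that included 1-fold, and of 2.02 (1.06 to 3.996) without the 5 most abundant entries in the totals.
miR-4458: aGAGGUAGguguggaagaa
miR-4500 had 0 counts in both libraries, as did an entry named p-hsa-miR-98, whose prefix is not explained in the sources used here. Among entries whose name matched a mature sequence, all other counts with this seed were of the 9 guides. Entries without a match were not examined.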

How the data were processed

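The authors deposited a table of whole-number counts, 1 column per library, for 2904 mature miRNA entries from the manganese and control libraries. Columns were matched to libraries by the names in the sample descriptions. The genome build named in the submitters' processing notes is hg38. No source used here names the aligner, counter, annotation or filters. The deposited table of differences between libraries was not used.

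Counts were scaled over the whole table with TMM (edgeR 4.0.16, R 4.3.3). Folds are manganese over control with exact conditional binomial 95% intervals, shares have exact Clopper-Pearson intervals, and odds ratios exact conditional ones (scipy 1.17.1, Python 3.11.15). No source used here mentions molecular identifiers, so intervals cover counting error only, and variation between cultures is unmeasured. Measured entries had 20 or more counts summed over the libraries; a call needed 2-fold, or 1.5-fold for arm ratios, and an interval excluding 1. The code was tested on simulated counts. No member shared a row with another name. Every entry found by the rule is named, with all partner arms, entries sharing the seed and the 3 nearest abundant entries by fold. Alternatives were other scalings, including DESeq2 1.42.0 size factors, and other filters and rules. Members and lists were chosen with earlier results of these data known.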

Additional observations from a re-analysis of the deposited data

How the results depend on the processing

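No paired analysis was possible because each group held 1 library. The summed guide fold of 0.907 was 0.872 with total counts, 0.894 with DESeq2 size factors, 0.930 with TMM computed without the blood cell and 19q13 lists, 1.03 without the 5 most abundant entries and 1.03 with totals that left out the blood cell and 19q13 lists, the last chosen after seeing the data. In these last 2 the passenger fold of 0.894 became 1.02 and the median log2 fold of the measured members −0.031. Over TMM and the other scalings, 5 in all without that added one, 4 of 19 members changed sides of 1-fold, let-7a-5p, let-7d-5p, let-7i-5p and let-7a-2-3p. With at least 100 counts, 0 members and 0 partners were 2-fold lower, since fewer entries enter, and 0 stems had a shifted arm ratio. A rule of 1.5-fold gave 1 member higher and 3 lower, and 2-fold left 1 stem with a shifted arm ratio. When a guide's share was taken of all library counts in place of guide counts, the odds ratio of let-7a reversed to 0.909, and the others were 0.763 for let-7b, 0.666 for let-7c, 0.887 for let-7d, 0.820 for let-7e, 0.833 for let-7f, 0.824 for let-7g, 0.877 for let-7i and 0.688 for miR-98. The denominators differ by construction, and other causes were not tested. Depth limits the passenger arms, 7 of which had under 70 counts in each library.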
